A study of Mus musculus with 8 samples.

Results

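The creatine system of the mouse hippocampus was examined through 5 genes of the 29442 in the deposited table. They are Gatm and Gamt, which make creatine, Slc6a8, which carries it into cells, and the creatine kinases Ckb and Ckmt1, each found by its gene symbol. The set was selected on known function, with the difference between the groups in these same libraries already in view. The fold changes of the 5 genes are therefore a description, and nothing is read from the counts of those past a threshold of a test. RNA came from female C57BL/6J mice, aged 6 to 8 weeks, that had received abdominal subcutaneous injections for 21 days. The DHEA group (n = 4) was given dehydroepiandrosterone, an adrenal androgen precursor, at 30 mg/kg/day, and the Sesame Oil group (n = 4) was given the oil that served as the vehicle. The labels name the hippocampus and the study's methods its ventral part, taken after behavioural tests. Libraries are called by the number in their deposited names, and numbers 3, 4, 7 and 11 are labelled DHEA (DHEA-labelled libraries) while 5, 9, 10 and 16 are labelled Sesame Oil (oil-labelled libraries). The labels name no cage, batch or pairing, and p-values measure only the spread between these samples.

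The DHEA-labelled libraries held 35748416 to 38038361 counts each and the oil-labelled ones 31483772 to 35418297, so the former were all larger. The share of counts on mitochondrially encoded genes was also higher in each DHEA-labelled library, at 7.29% to 9.34% against 6.37% to 7.23%. All 5 hippocampal marker genes (Prox1, C1ql2, Wfs1, Neurod6 and Zbtb20) had counts in each library. Their summed level overlapped between the groups, at 935 to 978 CPM (TMM-normalized counts per 1000000) against 923 to 1110 CPM. Directions follow the deposited treatment labels. Every gene in the study's own list of differential genes carries a sign opposite to that computed from these labels, so directions here hold only as far as the labels do. The libraries hold RNA of all cells of the tissue, in which fewer cells of a type and less RNA per cell cannot be told apart.

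Creatine stores high-energy phosphate. GATM joins arginine and glycine to guanidinoacetate, and GAMT methylates guanidinoacetate to creatine with a methyl group from S-adenosylmethionine. SLC6A8 brings creatine into cells together with sodium and chloride, and creatine kinases pass phosphate between ATP and creatine, CKB in the cytosol and CKMT1 in the space between the mitochondrial membranes. In brain, Gatm and Gamt are known as largely glial genes, and Ckmt1 as a gene of neurons. Inherited loss of GATM, GAMT or SLC6A8 depletes brain creatine and impairs mental development in people.

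Levels are compared between genes in FPKM, a scale that divides the counts of a gene by its length and by the total of its library. Over the 8 libraries the mean FPKM was 360 for Ckb, 67.2 for Ckmt1, 46.0 for Gatm, 20.9 for Slc6a8 and 7.63 for Gamt. Ckb stood at percentile 99.8 of all deposited genes by mean FPKM, those without counts included, and Gamt at percentile 78.4. In every library the order was Ckb, Ckmt1, Gatm, Slc6a8 and Gamt. The ranges over libraries were apart for all neighbours in this order except Ckmt1 and Gatm, since Gatm reached 60.2 FPKM in library 4 and Ckmt1 stood at 58.9 FPKM in library 11.

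The upstream sequences of the synthesis pair and of the most abundant kinase are shown first, because these genes span the lowest and the highest level of the set. They are the 250 bases before the annotated start, read 5′ to 3′ on the gene's strand from RefSeq on GRCm38.p6, on the minus strand at chr2:122611278-122611527 (Gatm), chr10:80261013-80261262 (Gamt) and chr12:111672339-111672588 (Ckb). Capitals mark matches on either strand to 4 motifs. They were the core promoter box TATAAA, the Sp1-type box GGGCGG, the half-site TGTTCT known for androgen and glucocorticoid receptors, and the half-site AGGTCA known for oestrogen and other nuclear receptors. No match overlapped another.
Gatm: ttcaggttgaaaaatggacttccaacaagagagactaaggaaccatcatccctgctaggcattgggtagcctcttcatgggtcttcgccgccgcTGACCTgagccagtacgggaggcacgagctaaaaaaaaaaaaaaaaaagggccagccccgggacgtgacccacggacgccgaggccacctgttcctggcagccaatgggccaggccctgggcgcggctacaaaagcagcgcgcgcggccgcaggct
Gamt: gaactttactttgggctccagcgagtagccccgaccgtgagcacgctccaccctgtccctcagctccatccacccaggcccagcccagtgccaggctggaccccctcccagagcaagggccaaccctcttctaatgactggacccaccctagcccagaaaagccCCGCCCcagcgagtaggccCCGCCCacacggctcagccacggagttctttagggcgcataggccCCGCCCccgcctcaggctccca
Ckb: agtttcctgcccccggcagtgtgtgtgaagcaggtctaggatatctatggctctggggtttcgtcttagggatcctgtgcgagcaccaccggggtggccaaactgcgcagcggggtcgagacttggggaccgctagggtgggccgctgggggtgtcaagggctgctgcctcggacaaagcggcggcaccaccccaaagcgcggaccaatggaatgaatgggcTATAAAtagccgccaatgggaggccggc
Gatm held 1 AGGTCA match, on the opposite strand, and none of the other motifs. Gamt held 3 GGGCGG matches, all on the opposite strand, and Ckb held 1 TATAAA match near its start. In both annotated windows of Ckmt1 and in the 3 printed windows, TGTTCT had 0 matches. Of the windows of Ckmt1, 1 held 1 TATAAA match and 1 AGGTCA match, both on the opposite strand. The other window of Ckmt1 held none of the 4 motifs. Of 32851 such windows over the genome, 12.4% held TATAAA, 32.7% GGGCGG, 16.1% TGTTCT and 14.0% AGGTCA. The GC content was 59.2% for Gatm, 66.8% for Gamt and 62.8% for Ckb, against a median of 52.4% over all windows. A match describes letters in this window and is not evidence of a bound site.

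Gatm, which encodes the first and rate-limiting enzyme of creatine synthesis, had the largest difference of the 5 genes. Its level was 50.3, 60.2, 55.0 and 46.5 FPKM in libraries 3, 4, 7 and 11, with the DHEA label. In the oil-labelled libraries 5, 9, 10 and 16 it was 38.6, 45.2, 37.4 and 34.6 FPKM. Each DHEA-labelled library was above each oil-labelled one, although library 11 exceeded library 9 by little. The means were 53.0 ± 5.90 FPKM against 38.9 ± 4.51 FPKM (SD, n = 4 each), and the log2 fold change of normalized counts was 0.48 (standard error, SE, 0.09), or 1.39-fold. These values rest on 2565 to 5218 counts per library. Of the 12780 genes averaging at least 100 counts, 0.743% had a log2 fold change above that of Gatm. This rank is only a description, because the set was chosen with this contrast known. The part of the larger total counts and of the higher mitochondrial share in the difference of Gatm was not tested.

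Gamt, the methyltransferase that completes the synthesis, was far less abundant and rested on 219 to 360 counts per library. It stood at 8.58, 9.45, 7.80 and 6.91 FPKM in libraries 3, 4, 7 and 11. The corresponding levels were 6.84, 8.22, 6.51 and 6.71 FPKM in libraries 5, 9, 10 and 16. The groups overlapped, because library 9 lay above libraries 7 and 11. The means were 8.18 ± 1.08 FPKM and 7.07 ± 0.778 FPKM (SD, n = 4 each), with a log2 fold change of 0.24 (SE 0.14). Without libraries 3 and 4, which held the highest levels, this value was 0.05. The FPKM ratio of Gatm to Gamt was 5.87 to 7.05 in the DHEA-labelled libraries and 5.15 to 5.73 in the oil-labelled ones, without overlap between the groups. The transcripts differ in GC content, at 43.2% for Gatm and 59.7% for Gamt, and the trend with GC content differed between the groups. With that trend removed the log2 fold changes were 0.43 for Gatm and 0.29 for Gamt. The part of GC content in this ratio was not tested.

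The level of Slc6a8, the creatine transporter, overlapped between the groups. It stood at 18.6, 18.3, 21.8 and 21.9 FPKM in libraries 3, 4, 7 and 11. In libraries 5, 9, 10 and 16 it stood at 21.6, 23.2, 20.5 and 21.5 FPKM. Libraries 3 and 4 were the lowest of the 8, and libraries 7 and 11 lay within the range of the oil-labelled group. The means were 20.2 ± 1.96 FPKM and 21.7 ± 1.12 FPKM (SD, n = 4 each). The log2 fold change was -0.08 (SE 0.07), and 0.00408 without libraries 3 and 4, so its direction rested on these libraries. The FPKM ratio of Gatm to Slc6a8 was 2.12 to 3.29 in the DHEA-labelled libraries and 1.61 to 1.95 in the others.

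Slc16a12, a monocarboxylate transporter that also carries creatine, varied widely inside both groups. Its level was 10.1, 3.53, 3.83 and 7.45 CPM in libraries 3, 4, 7 and 11, and 6.34, 3.80, 5.80 and 4.63 CPM in libraries 5, 9, 10 and 16. The log2 fold change was 0.27 (SE 0.27, adjusted p = 0.680, edgeR). Choroid plexus markers varied over the same libraries. The summed level of the 6 markers, led by Ttr, was 4425, 93.5, 2180 and 4117 CPM in libraries 3, 4, 7 and 11 and 3092, 507, 2018 and 2233 CPM in libraries 5, 9, 10 and 16. Libraries 3 and 11 were the highest for both, and library 4 the lowest. The part of the choroid plexus in the level of Slc16a12 was not tested.

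Ckb, the cytosolic brain-type kinase, was the most abundant gene of the set in each library. It was measured at 348, 365, 362 and 378 FPKM in libraries 3, 4, 7 and 11. In libraries 5, 9, 10 and 16 it was measured at 338, 377, 339 and 370 FPKM. The groups overlapped over most of their range, with means of 363 ± 12.3 FPKM and 356 ± 20.3 FPKM (SD, n = 4 each). The log2 fold change was 0.06 (SE 0.06), on at least 16370 counts in each library. This value was 0.03 without library 5, 0.03 with library totals alone and 0.11 with the trend with GC content removed.

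Ckmt1, the ubiquitous mitochondrial kinase, was measured at 70.2, 65.7, 64.2 and 58.9 FPKM in libraries 3, 4, 7 and 11. Libraries 5, 9, 10 and 16 held 71.1, 65.9, 68.3 and 73.1 FPKM. Library 11 was the lowest and library 16 the highest, and the groups overlapped. The means were 64.7 ± 4.65 FPKM and 69.6 ± 3.17 FPKM (SD, n = 4 each), with a log2 fold change of -0.08 (SE 0.07). This value was -0.18 without libraries 3 and 4 and -0.03 without library 11. The FPKM ratio of Ckb to Ckmt1 was 4.96 to 6.42 in the DHEA-labelled libraries and 4.76 to 5.73 in the oil-labelled ones. Both muscle-type kinases were at the limit of detection. Ckm had 0 counts in 7 libraries and 1 count in library 9, and Ckmt2 had at most 4 counts in any library. A count of 0 allows up to 3 counts, so no fold change is given for either gene. Ckb held 82.6% to 86.5% of the summed FPKM of the 4 kinases.

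**Figure D1:**
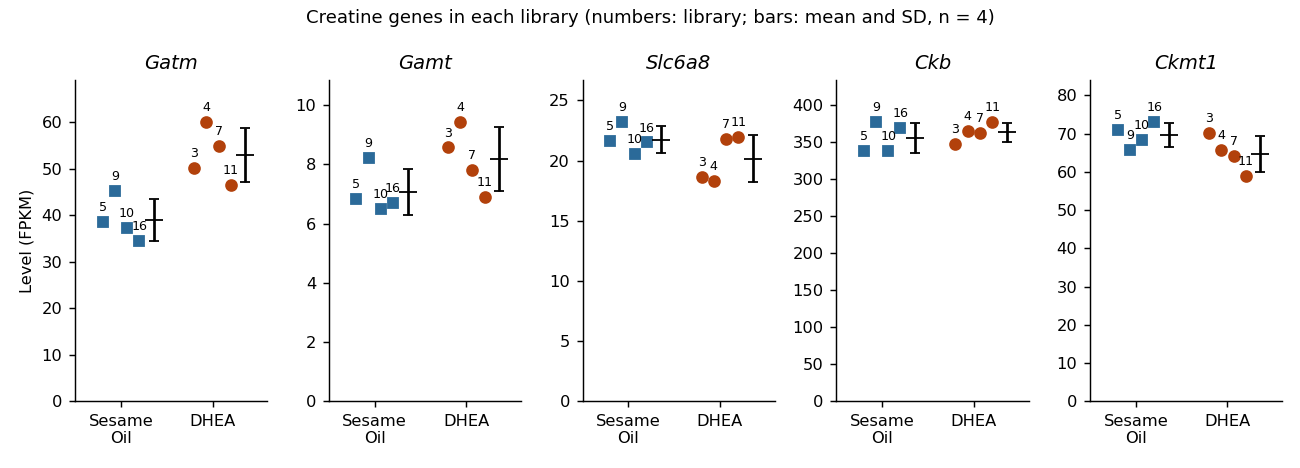
Level in FPKM of Gatm, Gamt, Slc6a8, Ckb and Ckmt1 in each library, 1 panel per gene, with 1 point per library and the mean and SD of each group (n = 4). Gatm has no overlap between the groups, at 46.5 to 60.2 FPKM for DHEA against 34.6 to 45.2 FPKM for Sesame Oil, and the groups of the other 4 genes overlap.

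Of the 5 genes, 3 had a positive and 2 a negative log2 fold change in the DHEA-labelled libraries, and the quasi-likelihood test of edgeR gave an unadjusted p under 0.05 for Gatm alone. Over all 27612 genes tested, 4.82% were higher and 4.49% lower at this level, and among the genes averaging at least 100 counts these shares were 8.08% and 7.60%. Gatm was also the only 1 of the 5 whose groups did not overlap, as held for 4.23% of the genes averaging at least 100 counts in the higher direction and 4.23% in the lower direction. Nothing is read from these counts, since the set was chosen with this contrast known. After Benjamini-Hochberg adjustment of edgeR's test 0 of the 5 genes and 0.00% of all genes passed an adjusted p under 0.05. At an unadjusted p under 0.05 the same test called 2571 genes, and DESeq2 called 153 genes after adjustment, among them Gatm.

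Genes that feed or use the creatine system were described through 5 further lists, with 44 genes, and 3 further creatine genes. Of these 47 genes, 6 were higher, 4 were lower and 37 were neither at an unadjusted p under 0.05. The background was 4.82% and 4.49% over all genes, and 8.08% and 7.60% over genes averaging at least 100 counts, as 40 of the 47 did. The smallest adjusted p among them was 0.261. Their median log2 fold change was 0.02, beside 0.01 for all genes tested. The groups did not overlap for 3 of the 47 genes in the higher and 1 in the lower direction. Among genes averaging at least 100 counts this held for 4.23% in each direction, so nothing is read from a lack of overlap.

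Arginine and glycine are the substrates of GATM. In the list of 13 genes for their supply, 11 had a positive and 2 a negative log2 fold change, with a median of 0.03. At an unadjusted p under 0.05, 3 were higher and 0 were lower. Psat1, the aminotransferase of serine synthesis, from which glycine is made, was the most abundant gene of the list. It stood at 44.4, 51.6, 43.3 and 45.0 FPKM in libraries 3, 4, 7 and 11 against 37.9, 41.5, 40.2 and 36.1 FPKM in libraries 5, 9, 10 and 16, without overlap. The log2 fold change of Psat1 was 0.27 (SE 0.07, adjusted p = 0.261, edgeR). Phgdh, the first enzyme of serine synthesis, had a log2 fold change of 0.16 (SE 0.07, adjusted p = 0.503), and Slc7a2, a transporter of cationic amino acids such as arginine, 0.17 (SE 0.07, adjusted p = 0.495). Over 21 alternatives the unadjusted p was no longer under 0.05 in 9 for Phgdh and in 11 for Slc7a2, and it was under 0.05 in each for Psat1. Without libraries 3 and 4 the log2 fold change of Psat1 was 0.18.

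The methyl group for GAMT comes from S-adenosylmethionine. Of 10 genes of this supply, 4 had a positive and 6 a negative log2 fold change, with a median of -0.03. At an unadjusted p under 0.05, 2 were higher and 0 were lower. Adk, which clears the adenosine left from S-adenosylhomocysteine, stood at 7.50, 7.70, 7.15 and 7.48 FPKM in libraries 3, 4, 7 and 11. In libraries 5, 9, 10 and 16 Adk stood at 5.95, 6.85, 6.46 and 6.36 FPKM, below each DHEA-labelled library. Its log2 fold change was 0.25 (SE 0.07, adjusted p = 0.283, edgeR), and 0.16 with the trend with GC content removed. Mat2b, the regulatory subunit of methionine adenosyltransferase, had a log2 fold change of 0.21 (SE 0.07, adjusted p = 0.362), which was 0.09 and no longer past an unadjusted p under 0.05 without libraries 3 and 4. Its catalytic partner Mat2a, the most abundant gene of the list, had one of -0.04 (SE 0.09).

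Mitochondrial creatine kinase takes up ATP through the adenine nucleotide translocators and passes phosphocreatine out through the porins. None of these 5 partner genes passed an unadjusted p under 0.05 in either direction, with a median log2 fold change of 0.10. Slc25a4, the most abundant at a mean of 371 FPKM, had a log2 fold change of 0.12 (SE 0.07), and Vdac1 one of 0.02 (SE 0.06). Slc25a4 was thus at about the level of Ckb (360 FPKM), while Ckmt1 (67.2 FPKM) lay below both in mean FPKM.

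Adenylate kinases and AMP-activated protein kinase (AMPK) form the other route by which cells buffer and sense ATP. Of 11 genes, 1 was higher and 4 were lower at an unadjusted p under 0.05, with a median log2 fold change of -0.06. Prkag2, a nucleotide-binding subunit of AMPK, stood at 10.5, 9.57, 9.95 and 10.6 FPKM in libraries 3, 4, 7 and 11 against 12.9, 11.4, 11.3 and 11.5 FPKM in libraries 5, 9, 10 and 16. These groups did not overlap, and the log2 fold change was -0.19 (SE 0.06, adjusted p = 0.362, edgeR). Prkab2, another AMPK subunit, had a log2 fold change of -0.20 (SE 0.09, adjusted p = 0.531), which was -0.06 without libraries 3 and 4. Among the adenylate kinases, Ak5, the most abundant at a mean of 78.9 FPKM, had a log2 fold change of -0.16 (SE 0.06, adjusted p = 0.441) and the mitochondrial Ak4 one of -0.21 (SE 0.09, adjusted p = 0.501). Ak3, also mitochondrial, was the exception at 0.18 (SE 0.06, adjusted p = 0.381), with groups that did not overlap (10.3 to 11.2 FPKM against 9.34 to 10.2 FPKM). Without library 5, 0 of the list's genes were lower at this level, with log2 fold changes of -0.14 for Prkag2, -0.14 for Ak5, -0.13 for Prkab2 and -0.12 for Ak4. Over the 21 alternatives the unadjusted p was no longer under 0.05 in 10 for Prkab2, DESeq2 and filterByExpr among them, in 6 for Ak4, in 3 for Ak5 and in 1 each for Prkag2 and Ak3. Among 5 relatives of Slc6a8 that carry GABA, taurine or betaine, 0 passed in either direction, and the median log2 fold change was -0.06.

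**Figure D2:**
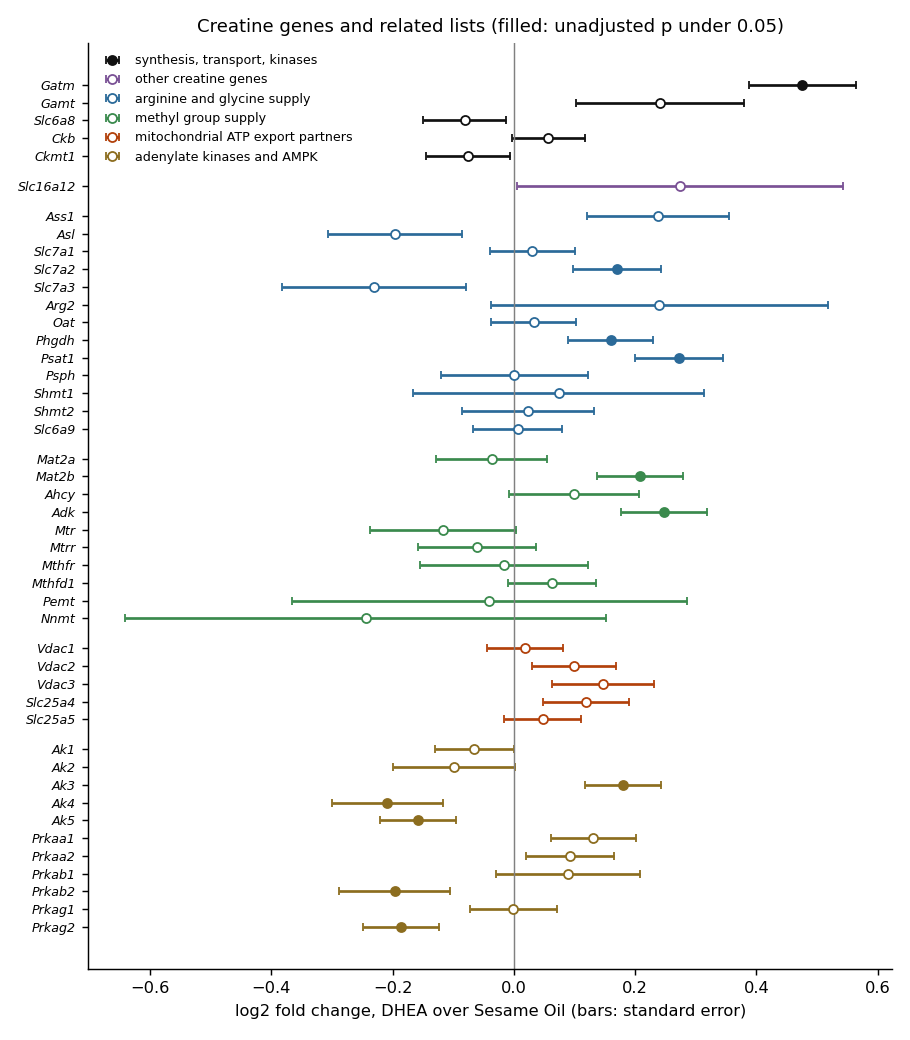
Log2 fold change, DHEA over Sesame Oil, with its standard error for the 5 creatine genes, Slc16a12 and the genes of 4 related lists (substrate supply, methyl supply, ATP export, and adenylate kinases with AMPK), filled where the unadjusted p of edgeR's test was under 0.05. Gatm lies farthest to the right at 0.48, and in the list of adenylate kinases and AMPK 4 genes are filled to the left of 0 and 1 to the right.

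Because creatine genes differ between brain cell types, markers of these types are given beside them. All 10 oligodendrocyte and myelin markers were higher in the DHEA-labelled libraries at an unadjusted p under 0.05, with a median log2 fold change of 0.39. Among all genes averaging at least 100 counts, 8.08% were higher and 7.60% lower at this level, which is the background for the counts of markers. The marker lists were chosen with earlier results of these data known, and markers of a cell type are not independent of each other. Nothing is therefore read from these counts. The count of myelin markers was 7 with robust moderation and 7 without libraries 3 and 4. Their summed level was 6831, 8620, 6754 and 7082 CPM in libraries 3, 4, 7 and 11 and 5466, 6546, 5434 and 4606 CPM in libraries 5, 9, 10 and 16, without overlap. Mbp, which encodes myelin basic protein, had a log2 fold change of 0.39 (SE 0.10), beside the 0.48 of Gatm. Library 4 was the highest of its group and library 9 of the other for this sum, for Gatm and for Gamt alike. Of 9 astrocyte markers, led by Slc1a2, 6 were higher and 0 lower (median 0.17), and the groups overlapped in their summed level. This count was 2 without library 5 and 2 without library 10. Of 10 neuronal markers, led by Snap25, 0 were higher and 2 lower (median -0.03). Among 6 endothelial markers, led by Cldn5, 3 were higher and 0 lower (median 0.25), among 5 microglial ones, led by Csf1r, 1 and 0 (median 0.12), and among 5 of oligodendrocyte precursors 1 and 0 (median 0.10). The 6 choroid plexus markers (median 0.44) and 6 skeletal muscle markers (median 0.26) had 0 in either direction, and those of muscle, led by Acta1, summed to at most 6.88 CPM. In the mean of log2(CPM + 0.5) the choroid plexus markers were lower in the DHEA-labelled libraries, at 5.47 against 5.52, with library 4 at 2.50. By edgeR 0 markers had an adjusted p under 0.05, and the part of cell composition in the difference of Gatm was not tested.

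**Figure D3:**
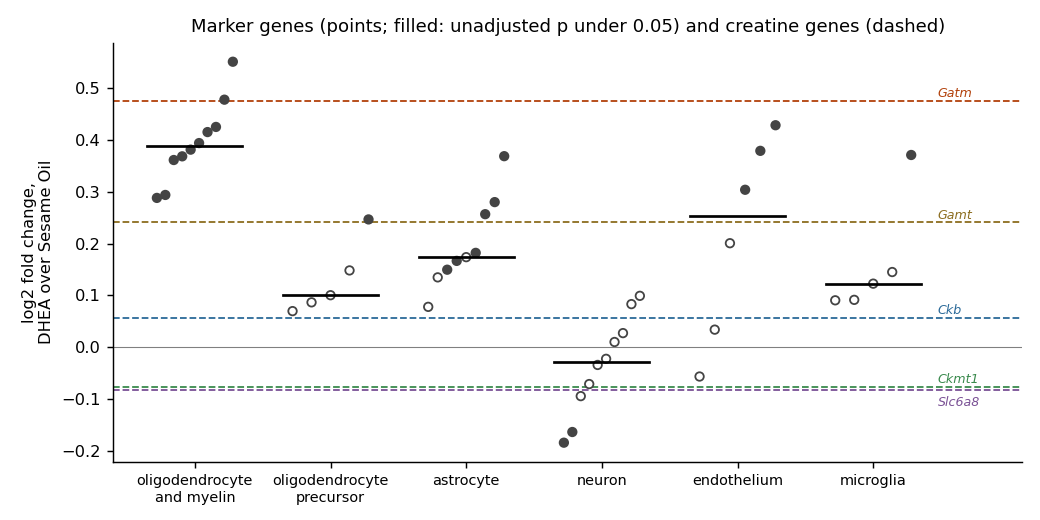
Log2 fold change, DHEA over Sesame Oil, of the marker genes of each cell type (points, filled where the unadjusted p was under 0.05, with the list median as a black bar), and the values of the 5 creatine genes as dashed lines. The line of Gatm at 0.48 lies near the upper end of the 10 oligodendrocyte and myelin points (median 0.39), and the neuronal points (median -0.03) spread around those of Slc6a8, Ckb and Ckmt1.

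The spread inside the groups was compared apart from the difference between them. For each library, the deviation of log2(CPM + 0.5) from its group mean was compared between the 5 genes and with the mean of 4 marker lists, 30 relations in all, over the 8 libraries. Two-sided exact permutations within the groups allow no p below 0.00174. After Benjamini-Hochberg adjustment over the 30 relations 0 had an adjusted p under 0.05, and 4 had an unadjusted one under 0.05. A single relation at the smallest possible p has an adjusted p of 0.0521 over 30 relations, so it could not pass alone.

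Ckmt1 followed the neuronal markers most closely, with a Pearson r of 0.959 (exact permutation p = 0.00174, the smallest possible, adjusted p = 0.0521) and a Spearman rho of 0.952 (exact permutation p = 0.00347, adjusted p = 0.0521). Without libraries 3 and 11, the farthest from the median, r was 0.937. Ckb followed the astrocyte markers with an r of 0.776 (exact permutation p = 0.00868, adjusted p = 0.130) and a rho of 0.857 (exact permutation p = 0.00347, adjusted p = 0.0521), and r was 0.932 without libraries 4 and 9. Leaving out 1 library at a time gave an r of 0.671 to 0.892, with an unadjusted p above 0.05 without library 3, 5, 7 or 10.

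The synthesis genes deviated together, with an r of 0.863 between Gatm and Gamt (exact permutation p = 0.0191, adjusted p = 0.191) and a rho of 0.786 (exact permutation p = 0.0625, adjusted p = 0.469). This relation rested in part on libraries 4 and 9, without which r was 0.531, and its unadjusted p was above 0.05 without library 4, 9 or 11. Gatm and the myelin markers had an r of 0.831 (exact permutation p = 0.0278, adjusted p = 0.208) and a rho of 0.595 (exact permutation p = 0.142, adjusted p = 0.712), and r was 0.721 without libraries 9 and 16. Without library 4 it was 0.757, and among the omissions of 1 library its unadjusted p was under 0.05 only for library 7 or 11. Library 11, the lowest DHEA-labelled library for Gatm, was the second highest of them for the myelin markers. With the astrocyte markers the r of Gatm was 0.682, but it turned to -0.881 without libraries 4 and 9. With the neuronal markers its r was 0.03. With the endothelial markers its r was 0.461 (exact permutation p = 0.342, adjusted p = 0.735) and its rho 0.429 (exact permutation p = 0.358, adjusted p = 0.792). That r was 0.888 without libraries 4 and 7 and ran from 0.05 (without library 4) to 0.945 (without library 7).

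**Figure D4:**
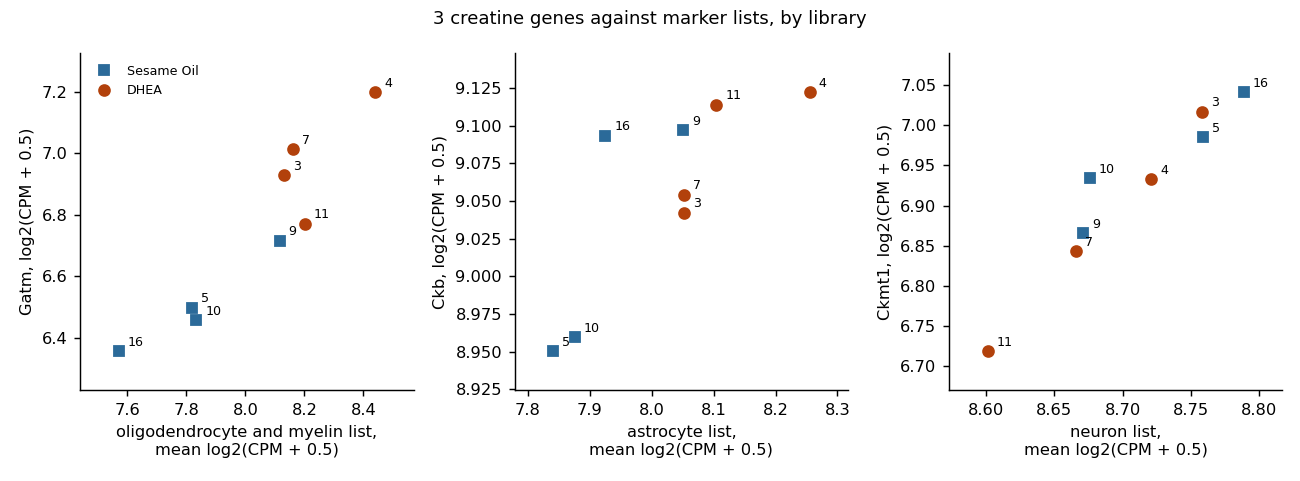
Level of Gatm, Ckb and Ckmt1 against the mean of the myelin, astrocyte and neuronal marker lists, both as log2(CPM + 0.5), with 1 point per library coloured by group. The r of the deviations from the group means is 0.959 for Ckmt1 and the neuronal markers and 0.831 for Gatm and the myelin markers, where library 4 lies highest and library 11 lies below libraries 3 and 7 for Gatm but above them for myelin.

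The genes whose deviations within the groups were most like those of each creatine gene were sought among the 12779 other genes averaging at least 100 counts, over the 8 libraries and as a description. For Gatm they were Il33 (r = 0.995), an alarmin cytokine that glia of the mouse brain express, Ddx25 (r = 0.979) and Prr5l (r = 0.977). For Gamt they were Ndn (r = 0.988), Qpct (r = 0.981) and Usf2 (r = 0.981), and for Slc6a8 they were Cxxc1 (r = 0.983), 5031434O11Rik (r = 0.978) and Elovl1 (r = 0.978). Lurap1 (r = 0.966), Thbs4 (r = 0.966) and Gpr180 (r = 0.957) were nearest to Ckb. Pdcl (r = 0.992), Ubash3b (r = 0.990) and Rnf14 (r = 0.988) were nearest to Ckmt1. No gene was among the nearest 3 of more than 1 creatine gene, and no test was made of these values.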

How the data were processed

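Hippocampal RNA of 8 mice (4 per group) was sequenced as paired-end reads. Per the study's methods, reads that passed quality control were aligned with HISAT2 and assigned to genes with HTSeq. The submitters' processing notes also name fastp and the build GRCm39, and versions are not given in the sources used here. The authors deposited raw counts for 29442 genes and a table of FPKM. The deposited FPKM equal the counts divided by the total and by 1 length per gene, within 0.1% for 25234 of 25234 genes with values in at least 2 libraries. Rows without a gene name and columns not used numbered 0. No pair of libraries of a group agreed within sampling noise (smallest chi-square per degree of freedom 7.93).

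In R 4.3.3, edgeR 4.0.16 was used for TMM factors and quasi-likelihood tests of the 27612 genes that had a count in any library (prior count 0.125), with Benjamini-Hochberg adjustment over all of them. A standard error is the log2 fold change divided by the root of its F statistic. CPM are TMM-normalized counts per 1000000. Total counts were at least 31483772 per library, and Gamt, with 219 to 360 counts, carries the largest counting error of the 5 genes. Alternatives were DESeq2 1.42.0, limma 3.58.1 (trend on log2(FPKM + 1) and log2(FPKM + 0.1)), other normalizations, filters on low counts, robust moderation, a prior count of 1, the removal of mitochondrial genes and the omission of each library. Removal of the trend with GC content (lowess, span 0.3, from GENCODE transcripts of 15594 of 16813 genes) and omission of libraries 3 and 4 together were chosen after seeing the data. Scripts were tested on simulated data.

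The creatine genes, pathway lists and marker lists were chosen with earlier results of these data known. Genes named were the 5 creatine genes, pathway genes with an unadjusted p under 0.05 or at most 3 counts in a library, the most abundant gene of each list, marker genes of lists that moved with the groups, and the 3 genes nearest in pattern to each creatine gene. Some genes that this rule names are not reported here. Vdac1 and the hippocampal markers other than Neurod6 fall outside it and were chosen after their values were seen. Upstream sequences of 4 of the 5 genes were taken from RefSeq on GRCm38.p6, and no other coordinates were used. Behaviour, electrophysiology, qRT-PCR, protein and ChIP measurements were not analysed here.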

Additional observations from a re-analysis of the deposited data

Results flagged for a closer look

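Dixon's test of the gap to the nearest library over the range of the group was made in 78 groups of 4 libraries, where chance gives about 3.9 that stand apart. They were the levels of the 5 creatine genes and of 15 related genes with values in the text, the ratios of creatine genes, the marker lists, the total counts and the mitochondrial share. In 2 groups library 7, labelled DHEA, stood apart. It held 48.6 CPM of Slc7a2 against 54.0 to 54.2 CPM in the other DHEA-labelled libraries (ratio 0.966), and 80.3 CPM of Ak3 against 87.9 to 89.3 CPM (ratio 0.847).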

How the results depend on the processing

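Over 21 alternatives the log2 fold change of Gatm was 0.38 to 0.55. That of Gamt was 0.05 to 0.32, of Ckb 0.03 to 0.11, of Ckmt1 -0.18 to -0.03 and of Slc6a8 -0.12 to 0.00408. Gatm has a GC content of 43.2% and the other 4 genes one of 54.9% to 61.7%, and the GC trend differed between the groups without overlap. With the trend removed the log2 fold change was 0.43 for Gatm, 0.29 for Gamt, 0.11 for Ckb, -0.05 for Slc6a8 and -0.05 for Ckmt1, and that of Adk was 0.16.

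Genes with an adjusted p under 0.05 numbered 0 with edgeR, 153 with DESeq2, 4 with robust moderation, 1 without libraries 3 and 4 together, and 0 to 93 with each library left out (93 without library 7). Of the 5 creatine genes, 1 passed the adjusted threshold with DESeq2 and 0 to 1 with each library left out (Gatm, without library 7 or 11). At an unadjusted p under 0.05, 2 passed without libraries 3 and 4 (Gatm and Ckmt1) and 1 to 2 with each library left out (Gatm and Gamt without library 11). Nothing is read from these counts, since the set was chosen with this contrast known. Pathway genes that were higher numbered 4 to 10 with each library left out (10 without library 7), and those that were lower 0 to 4 (0 without library 5). Astrocyte markers that were higher numbered 3 with library totals alone, with at least 10 counts and with filterByExpr, 2 with limma-trend on either FPKM scale, and 2 to 7 with each library left out. Myelin markers that were higher at this level numbered 7 to 10 over the alternatives (8 to 10 with each library left out), and all 10 had a positive log2 fold change in each. The causes were not tested.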
